A study of Mus musculus with 8 samples.

Results

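The tripartite motif (TRIM) genes encode a family made up mostly of ubiquitin ligases. Their mRNA was followed here in MC38 cells that lack the translation factor DENR or carry it, with and without interferon γ (IFNγ). Members were the genes with a symbol of the form Trim, a number and at most 1 letter that were listed in both deposited tables and had a mean of at least 10 over the 4 samples of either table. That left 42 of the 56 TRIM genes listed in either table, and 42 of the 20432 genes listed in both. All 42 had a mean of at least 10 in both tables. Of the other 14, 9 were listed in both tables under that mean, Trim69 being the highest of them at 7.24 with IFNγ and 2.97 without, and 5 were listed in 1 table.

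A TRIM protein typically carries a RING domain, 1 or more B-boxes and a coiled coil at its amino end, though some members lack the RING domain. The RING domain passes ubiquitin from a conjugating enzyme to a substrate, and the carboxyl end, often a PRY-SPRY domain, chooses the substrate. Several TRIM proteins bind viral capsids or act on the RIG-I and STING pathways that sense foreign nucleic acid, and the genes of many of these are targets of interferon. Others are transcriptional corepressors, bind RNA through NHL repeats or organize microtubules.

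MC38 cells are a mouse line from a colon adenocarcinoma. The 8 samples formed 4 groups of 2: control (wild type) and DENR KO cells, each either given IFNγ at 20 ng/ml for 4 h or left untreated. DENR KO cells were made with Cas9 and guide RNAs against Denr, whose protein helps ribosomes to start again after a short upstream reading frame. The labels do not say whether the samples of a group came from separate cultures or clones, so p-values measure the spread between these samples, which may be technical. RNA of whole cultures was sequenced, so a smaller share of responding cells and less RNA per cell cannot be told apart.

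Values are normalized counts, meaning a gene's reads after division by the size factor of that sample. The samples held 17369020 to 18403790 reads on genes, and the 10 most abundant genes took between 4.10% and 4.45% of them. Denr itself had 1438 and 1401 normalized counts in control cells with IFNγ and 946 and 957 in DENR KO cells. Untreated, it had 1448 and 1297 in control cells and 943 and 916 in DENR KO cells. Its mRNA was therefore lower, but not absent, in every sample labelled DENR KO, with a log2 difference of −0.58 with IFNγ (adjusted p = 8.2e-06, limma) and −0.56 untreated (adjusted p = 0.00011, limma). The labelled tissue was checked against markers. Of 6 markers of colon epithelium, Epcam and Cdx2 were listed in neither table and none passed 20.6 in any sample. The fibroblast genes Col3a1 and Pdgfra lay between 1706 and 3813 in every sample, Col1a1 lay between 315 and 550.3, the endothelial gene Pecam1 did not pass 14.7, and the blood cell markers did not pass 3.06.

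The family was grouped by what its proteins are known for. The interferon and antiviral group held 12 members: Trim5, Trim6, Trim12a, Trim12c, Trim14, Trim21, Trim25, Trim26, Trim30a, Trim30d, Trim34a and Trim56. The signaling and protein quality control group held 17, the NHL repeat group 4, the transcriptional cofactors of the TIF1 class 4 and the microtubule group 2, and 3 members had no group. Of the 42, 12 lay on chromosome 7. A stretch of that chromosome from 104218793 to 104507849 (GRCm38) held 7 of them, in the order Trim6, Trim34a, Trim5, Trim12a, Trim12c, Trim30a and Trim30d, all from the antiviral group. Outside it, only 3 pairs lay within 100000 bases of each other, all on chromosome 11: Trim41 and Trim7, Trim17 and Trim11, and Trim47 and Trim65.

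Some of these genes are near copies, and that limits how their reads could be assigned. In the GENCODE annotation, 59.7% of the 50-base words of Trim34a occurred in another gene as well, mostly Trim34b, as did 36.6% of those of Trim5 and 33.7% of those of Trim12c, which share words with each other. The shares were 10.5% for Trim12a, 7.49% for Trim30d and 5.98% for Trim30a, and outside the antiviral group 58.6% for Trim43c. Exons of Trim14 overlapped those of Nans, on the opposite strand, over 31.3% of their length. Also on the opposite strand, exons of Trim34a overlapped those of Gm47248 over 23.5% and exons of Trim43c those of 9330159M07Rik over 38.6%. Exons of Trim17 overlapped those of Hist3h2a, on the same strand, over 19.0%. Whether strand was used in counting is not stated, so values of these genes carry that uncertainty.

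Promoters were read because the antiviral members moved together under IFNγ. Interferon is known to act on genes through DNA elements, among them the gamma-activated sequence TTCNNNGAA (GAS) and the interferon-stimulated response element, whose core is GAAANNGAAA (ISRE). Both were searched on both strands from 250 bases before to 50 bases after each annotated start (RefSeq, GRCm38.p6), where 31 of the 42 members had an entry. Trim3, Trim8, Trim11, Trim14, Trim16, Trim17, Trim33, Trim35, Trim36, Trim43c and Trim65 had none. The ISRE core was present in 8 of the 11 antiviral members with an entry, in 1 of the 20 other members (Trim2) and in 3.99% of all 27025 genes. Of the 8, Trim5, Trim12a, Trim12c, Trim30a, Trim30d and Trim34a are neighbours on chromosome 7, so the 8 promoters are not independent. The GAS letters were present in 0 of those 11, in 2 of the other 20 (Trim45 and Trim46) and in 9.55% of all genes. Windows of 30 bases on the strand of the gene show the ISRE core in capitals with 10 bases on each side. They are given for 7 of the 8 antiviral members, the 6 raised most by IFNγ in control cells that hold the letters and Trim26, and positions are for the window.
Trim21, chr7:102565450-102565479, minus strand: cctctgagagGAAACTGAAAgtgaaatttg
Trim12a, chr7:104315466-104315495, minus strand: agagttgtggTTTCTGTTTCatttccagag
Trim12c, chr7:104353359-104353388, minus strand: agagttgtggTTTCTGTTTCatttccagct
Trim5, chr7:104288136-104288165, minus strand: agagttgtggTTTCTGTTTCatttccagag
Trim34a, chr7:104244457-104244486, plus strand: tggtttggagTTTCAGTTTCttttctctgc
Trim30a, chr7:104465210-104465239, minus strand: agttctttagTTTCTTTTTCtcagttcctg
Trim26, chr17:36836976-36837005, plus strand: ccgcttccgaTTTCACTTTCcttttctcgg

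The window of Trim5 is letter for letter that of Trim12a, and the window of Trim30d on the minus strand at chr7:104507871-104507900 is the same as that of Trim30a. In Trim21 and in Trim26 a second match overlapped the first. The matches of Trim21, Trim12a and Trim34a began 10 to 19 bases after the annotated start, and those of Trim12c, Trim5 and Trim30d lay 20 to 49 bases before it. The match shown for Trim30a lay 36 to 27 bases before its annotated start, and another lay 2 to 11 bases after a different annotated start. A gene with several annotated starts was counted if any of them held the letters. Trim26 was the farthest out, with matches between 160 and 145 bases before its start. Trim25 and Trim56, which also rose with IFNγ, and Trim6 had no match in this window. A match is a description of these letters and no evidence of binding.

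**Figure D1:**
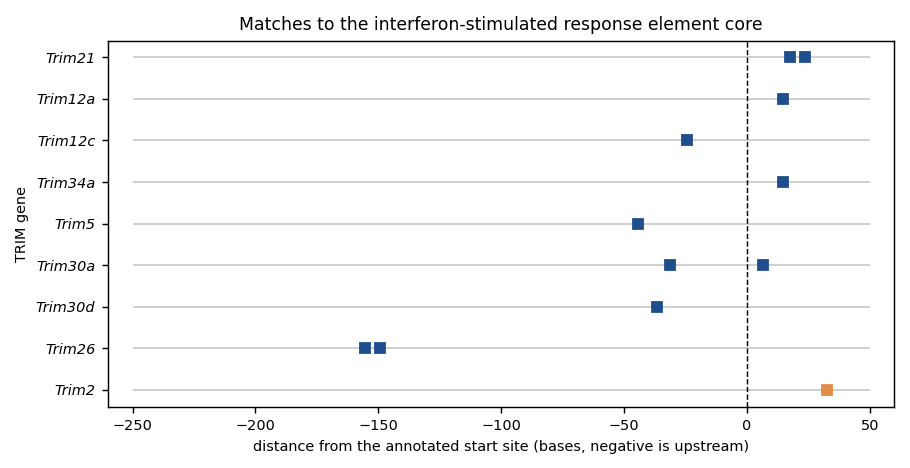
Position of each match to the ISRE core GAAANNGAAA in the promoters of TRIM genes. The horizontal axis is the distance in bases from the annotated start site (dashed line, negative is upstream), each grey line is the searched stretch, and squares are matches (blue, antiviral group; orange, Trim2). Matches of 7 of the 8 antiviral genes lie within 49 bases of the start, and those of Trim26 lie farther upstream.

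Levels were compared between genes per kb of the gene length that the authors list, on a scale common to all 8 samples that is described below. In untreated control cells the highest member was Trim28, also known as KAP1, the corepressor that KRAB zinc finger proteins recruit to silence retroelements, at 1693 ± 6.38 normalized counts per kb (SD, n = 2). Trim47 followed at 1307 ± 43.5, Trim35 at 858 ± 6.10, Trim8 at 823 ± 13.4 and Trim59 at 738 ± 41.1. The samples of each of these 5 genes did not overlap those of the next in order. The lowest was Trim6 at 2.92 normalized counts per kb, and the median of the 42 members was 61.2. Among the antiviral members only Trim25 was among the 10 highest without IFNγ, at 333 ± 5.58 per kb. With IFNγ, Trim28 and Trim47 were still highest in control cells, at 1633 ± 84.7 and 1523 ± 102 per kb, and their samples overlapped. Trim21 moved from number 26 to number 9 of the 42 in control cells, and Trim56 from number 16 to number 8.

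**Figure D2:**
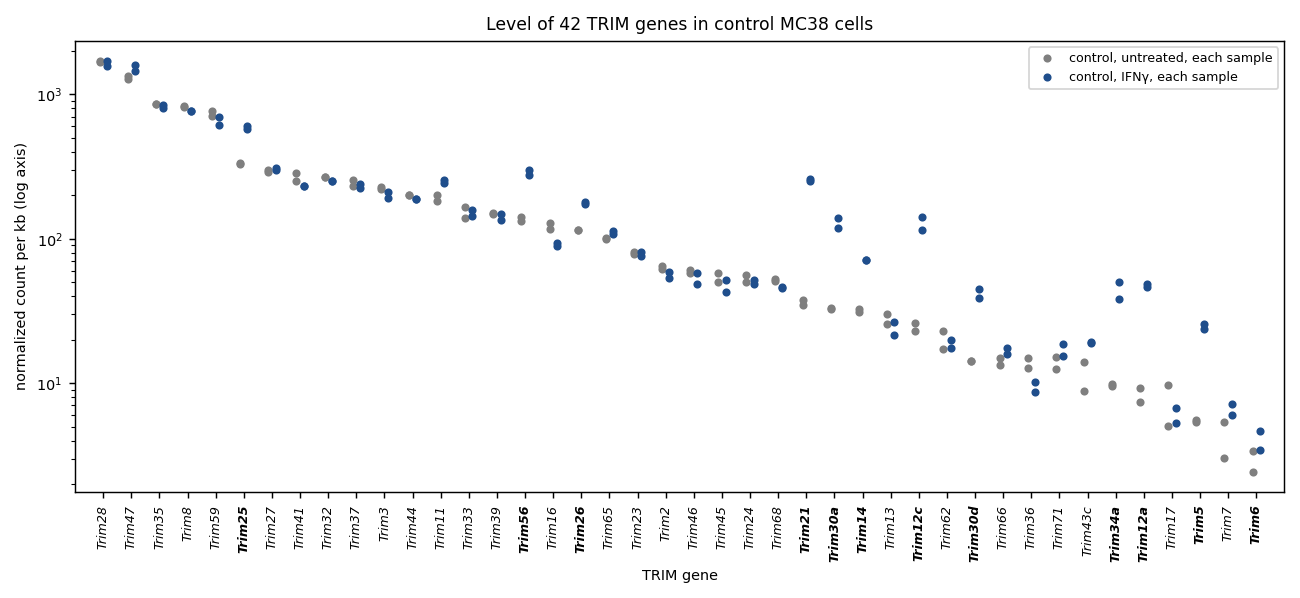
Level of the 42 TRIM genes in control cells. The vertical axis is normalized counts per kb of gene length on a log scale, the horizontal axis orders genes by the untreated level, and each point is 1 sample (grey, untreated; blue, IFNγ; bold names, antiviral group). Trim28 at 1693 and Trim47 at 1307 lead the untreated samples, and with IFNγ Trim21 moves from number 26 to number 9 of the 42.

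The first comparison asked how the family responded to IFNγ. The tables of the treatments were normalized separately. The reads behind all 8 samples were therefore recovered and scaled together, which multiplied the deposited values by 1.02 to 1.03 with IFNγ and by 0.971 to 0.975 untreated. Log2 differences between treatments come from that common scale, while the normalized counts printed are the deposited ones. Each difference was tested with limma on log2(value + 1), a scale that understates the change of low genes, and called at a Benjamini-Hochberg adjusted p under 0.05 over all 14257 genes tested.

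In control cells, IFNγ raised 13 of the 42 members and lowered 1. Of all genes tested, 9.12% were raised and 6.17% were lowered. The raised members were 11 of the 12 in the antiviral group, Trim6 being the exception, together with Trim11 and Trim47. In DENR KO cells 11 members were raised and 0 were lowered, against 6.8% raised and 2.88% lowered of all genes, and the 11 were again the antiviral group without Trim6. For lowered members in DENR KO cells, edgeR and DESeq2 also gave 0, and limma gave 1 at an unadjusted p under 0.05. At that unadjusted p, 1164 of all 14257 genes were lowered in DENR KO cells. With the deposited scale of each table in place of the common one, 12 members were raised and 6 were lowered in control cells, and 11 and 2 in DENR KO cells. Of all 14268 genes, 1026 were raised and 1758 lowered on that scale in control cells, and 759 and 956 in DENR KO cells. On the deposited scales the median log2 difference of all genes was −0.08 in either genotype. Among the markers of other cell types, 2 of the 4 tested were also lower with IFNγ in either genotype. Col1a1 lay between 315 and 374 with IFNγ and between 462 and 550.3 untreated, and Col3a1 between 2253 and 2557 and between 3358 and 3813. Their part in the TRIM results was not tested.

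Trim21, the cytosolic receptor for the Fc part of antibodies that sends coated virus to the proteasome, had the largest rise of the family in control cells. It had 133 and 144 normalized counts in untreated control cells and 942 and 907 with IFNγ. In DENR KO cells it had 147 and 126 untreated and 679 and 608 with IFNγ. Treated and untreated samples were far apart in either genotype, and the treated DENR KO samples lay below the treated control samples. The log2 difference was 2.81 (standard error 0.113, adjusted p = 1.8e-15, limma) in control cells, a 7.01-fold rise, and 2.30 (adjusted p = 1.3e-13, limma) in DENR KO cells, a 4.94-fold rise.

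Next came the mouse relatives of primate TRIM5α, a factor that binds retroviral capsids. Trim12a had 44.3 and 55.1 normalized counts in untreated control cells, and 262 and 274 with IFNγ. Trim12c had 101 and 87.8 untreated and 512 and 417 with IFNγ in control cells, its treated samples differing more than those of Trim12a. Trim5, a low gene, had 21.1 and 20.4 untreated and 92.2 and 84.6 with IFNγ in control cells. The treated samples of all 3 genes were clear of the untreated ones. In control cells their log2 differences were 2.49, 2.36 and 2.11, with adjusted p-values from limma of 8.1e-11, 9.3e-12 and 3.0e-05. In DENR KO cells they were 1.99, 2.04 and 2.38. For Trim5 this is a higher estimate than in control cells, and it rests on untreated DENR KO samples at 7.85 and 17.7.

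The remaining genes of the chromosome 7 stretch rose as well, apart from Trim6. Trim34a had 26.2 and 25.5 normalized counts in untreated control cells and 96.3 and 126 with IFNγ, a log2 difference of 2.13. Trim30a, which restrains NF-κB signaling by removing TAB2 and TAB3, had 138 and 139.8 untreated and 471 and 558 with IFNγ in control cells, a log2 difference of 1.96. Trim30d had 55.3 and 55.1 untreated and 165 and 143 with IFNγ, a log2 difference of 1.54. Adjusted p-values from limma for these 3 were 2.3e-06, 1.0e-11 and 1.3e-06, and in DENR KO cells their log2 differences were 1.49, 1.53 and 1.59. Trim6, which makes free ubiquitin chains that activate the kinase IKKε, had 17.1 and 12.2 untreated and 16.4 and 22.1 with IFNγ in control cells. Those samples overlapped, and the log2 difference of 0.45 had a 95% interval from −0.60 to 1.49. Of the 7 members of the stretch, 6 were therefore called.

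A further 4 antiviral members lie at other loci. Trim25, which adds ubiquitin chains to RIG-I, had 1946 and 1985 normalized counts in untreated control cells and 3249 and 3363 with IFNγ, a log2 difference of 0.83 (adjusted p = 1.1e-10, limma). Trim56, known to act on cGAS and STING, had 1349 and 1254 untreated and 2712 and 2484 with IFNγ, a log2 difference of 1.07 (adjusted p = 9.0e-12, limma). Trim14, a family member without a RING domain that binds MAVS on mitochondria, had 139 and 144 untreated and 300.2 and 303 with IFNγ, a log2 difference of 1.17 (adjusted p = 1.8e-07, limma). Trim26 had 811 and 808 untreated and 1205 and 1171 with IFNγ, a log2 difference of 0.63 (adjusted p = 5.8e-07, limma). All 4 genes showed a gap between treated and untreated samples that was wider than the spread within a group. In DENR KO cells the log2 differences were 0.63 for Trim25, 0.87 for Trim56, 1.04 for Trim14 and 0.47 for Trim26.

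**Figure D3:**
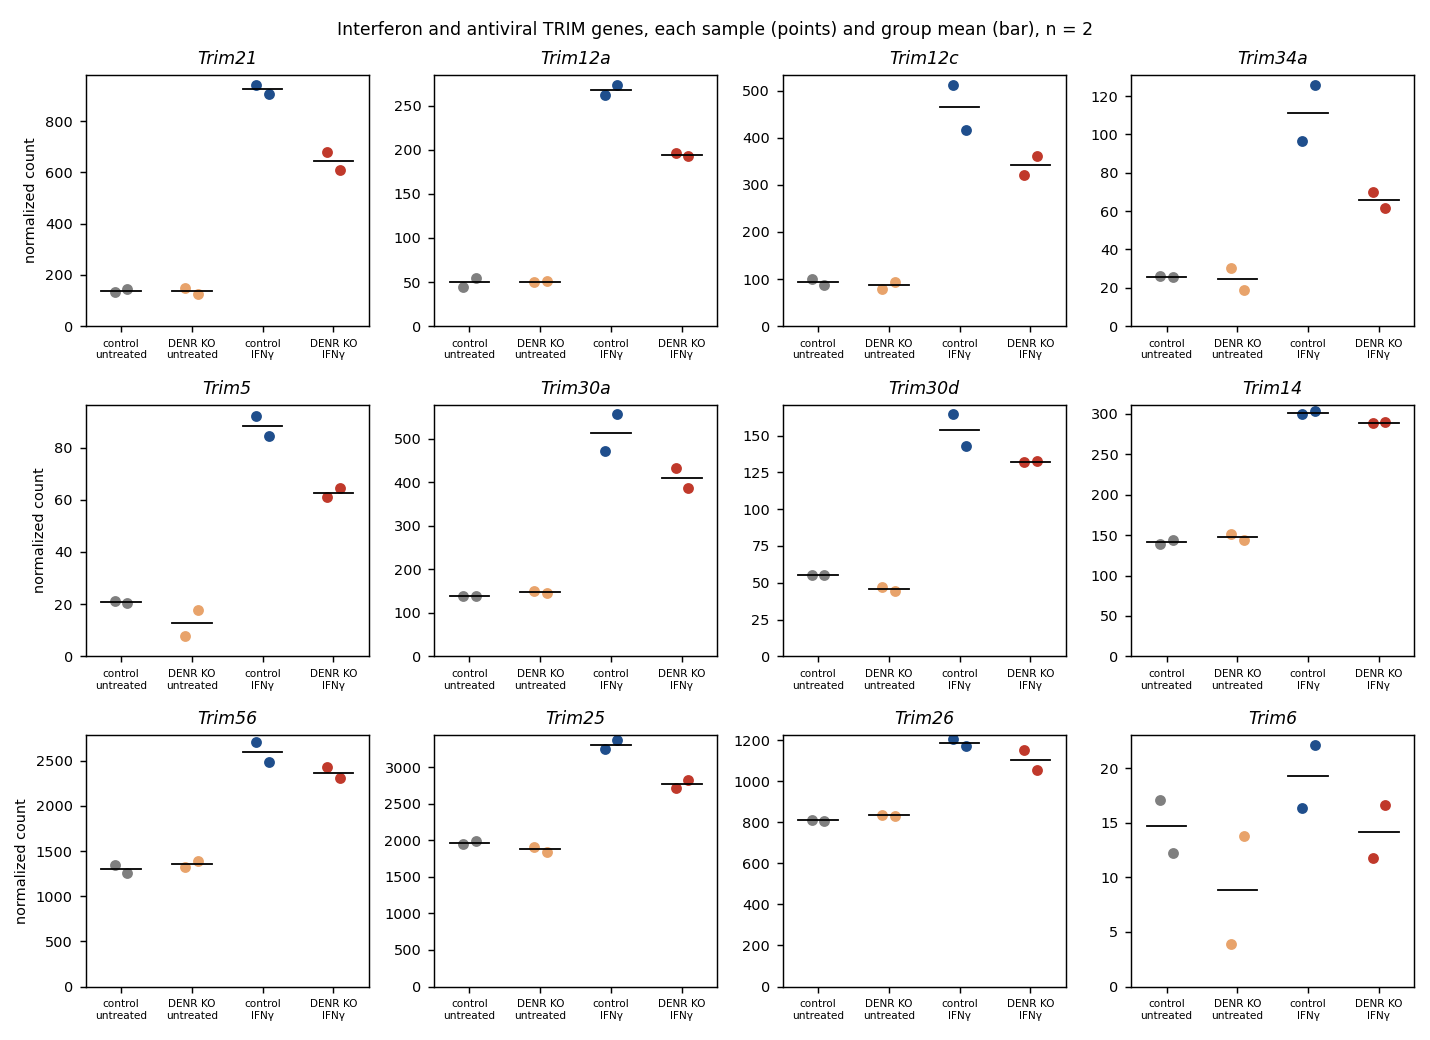
Normalized counts, as deposited, of the 12 antiviral TRIM genes. Each point is 1 sample, each bar is the mean of the 2 samples of a group (n = 2), each vertical axis starts at 0, and panels are ordered by the IFNγ response in control cells. Treated samples stand above untreated ones in 11 panels, and in Trim21 the treated DENR KO samples (679 and 608) lie below the treated control samples (942 and 907).

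Of the 30 members outside the antiviral group, 2 were raised and 1 was lowered in control cells. Of all genes tested, 9.12% were raised and 6.17% lowered, so these counts were not above the rate of all genes. In DENR KO cells 0 were called, against 6.8% raised and 2.88% lowered of all genes, and edgeR and DESeq2 also called 0. There limma gave 2 raised and 1 lowered at an unadjusted p under 0.05, beside 1659 raised and 1164 lowered of all 14257 genes. Trim11 had 742 and 672 normalized counts in untreated control cells and 843 and 889 with IFNγ, a log2 difference of 0.37 (adjusted p = 0.0017, limma). Trim47 had 3766 and 3579 untreated and 4245 and 3861 with IFNγ, a log2 difference of 0.22 (adjusted p = 0.021, limma). The adjusted p of Trim47 was 0.24 without control sample 1 with IFNγ and 0.13 without untreated control sample 2. Trim16, which takes part in the removal of damaged lysosomes, had 607 and 544 untreated and 398 and 413 with IFNγ, a log2 difference of −0.42 (adjusted p = 0.0027, limma). None of the 3 genes had overlapping samples, and in DENR KO cells their differences were 0.19, −0.01 and −0.13. The difference of the response between genotypes was not called for any of the 3. Leaving out 1 sample added calls in control cells, of Trim7 at 1.09 without untreated control sample 1, of Trim59 at −0.27 without control sample 2 with IFNγ, and of Trim41 at −0.31 without untreated control sample 2.

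The 3 called members outside the antiviral group all belonged to the signaling group. Log2 differences of the TIF1 cofactors, among them Trim28 and Trim33, lay between −0.07 and 0.24 in control cells. Those of the NHL repeat group, among them Trim71 and Trim2, lay between −0.18 and 0.30. In the microtubule group Trim36 had a difference of −0.54 and Trim46 of −0.15, and among the 3 members without a group, all low genes, Trim7 had 0.68, Trim43c 0.75 and Trim17 −0.22. Over the 30 members outside the antiviral group the median was −0.08 in control cells and −0.05 in DENR KO cells. Over the 12 antiviral members it was 1.75 and 1.51. The median of all genes tested was −0.005 and −0.008.

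**Figure D4:**
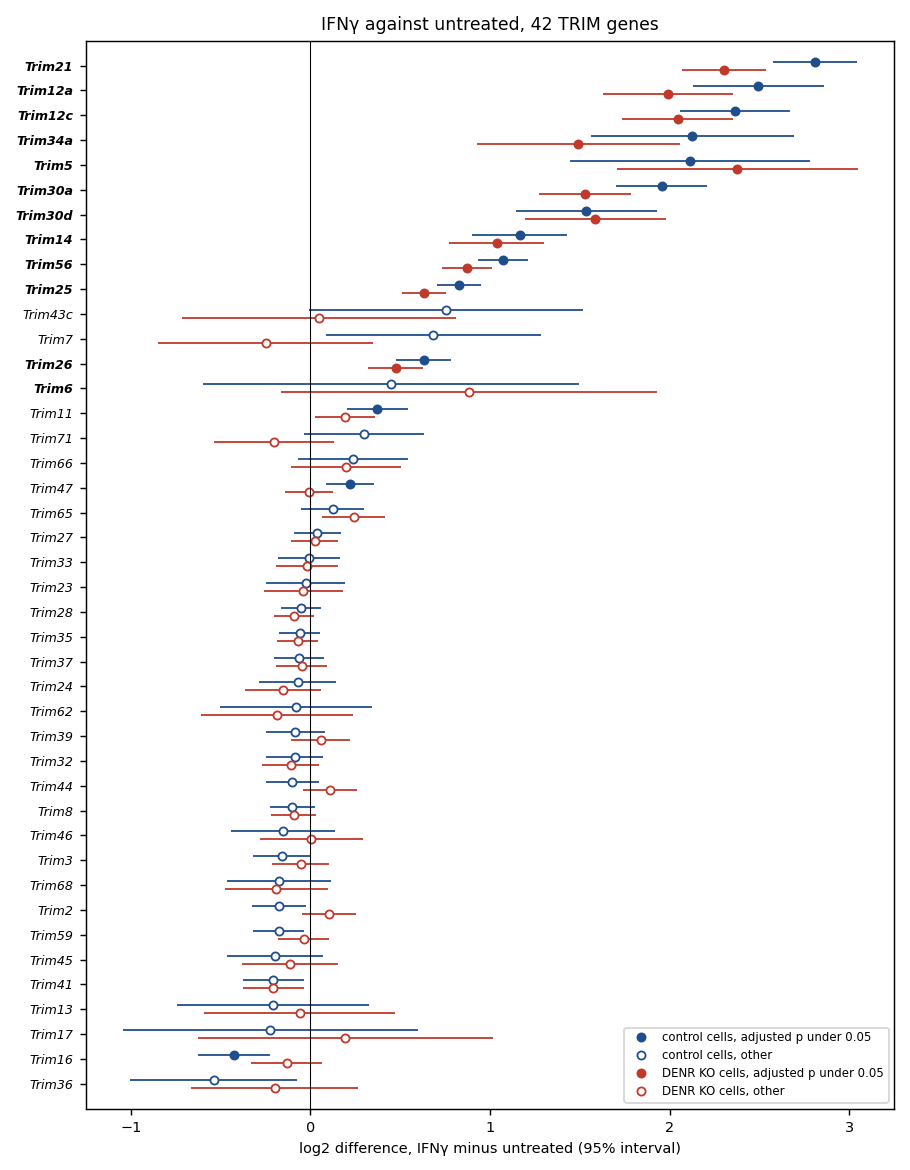
Log2 difference of IFNγ-treated over untreated cells for the 42 TRIM genes. Points are limma estimates with 95% intervals on the common scale (blue, control cells; red, DENR KO cells; filled, adjusted p under 0.05; bold names, antiviral group), with 2 samples in each group. Trim21 leads at 2.81 in control cells, and 11 of the 12 bold genes are filled in both colours.

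The second comparison asked how loss of DENR changed the family within each treatment. It was made within each table on the deposited values, over the 13928 genes with IFNγ and the 13998 untreated that had a mean of at least 10. With IFNγ, the DENR KO cells had 5 of the 42 members lower and 0 higher. Of all genes, 2.25% were lower and 1.8% were higher. The 5 were Trim21, Trim25, Trim12a, Trim12c and Trim34a, all from the antiviral group and all raised by IFNγ. The rise in control cells and this fall use the same treated control samples, so they are not independent. For higher members, edgeR and DESeq2 also gave 0, and limma gave 0 at an unadjusted p under 0.05. For lower members, limma gave 9 at an unadjusted p under 0.05. Of all 13928 genes, 899 were lower and 970 higher at that unadjusted p. The count of 5 fell to 2 with DESeq2 on the recovered reads, with the spread shared over all 8 samples and where a log2 difference beyond 0.5 was also required.

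Trim21 stood at 942 and 907 normalized counts in control cells with IFNγ and 679 and 608 in the DENR KO samples, so that the mean fell from 924 ± 24.4 to 644 ± 49.9 (SD, n = 2), to 69.6% of control. The log2 difference was −0.52 (standard error 0.0843, adjusted p = 0.00031, limma), and the call held without any 1 of the 4 samples. Trim25 had 3249 and 3363 in control cells and 2713 and 2819.7 in DENR KO cells, a fall to 83.7% of control. Its log2 difference of −0.26 (standard error 0.0598) had an adjusted p of 0.011 from limma. Without control sample 2 that adjusted p was 0.10, and without DENR KO sample 1 it was 0.13. No sample of either gene overlapped the other genotype.

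The calls of the chromosome 7 genes were less secure. Trim12a had 262 and 274 normalized counts in control cells and 196 and 192 in DENR KO cells, a log2 difference of −0.46 (adjusted p = 0.037, limma). Trim12c had 512 and 417 in control cells and 322 and 361 in DENR KO cells, a difference of −0.44 (adjusted p = 0.025, limma). Trim34a had 96.3 and 126 in control cells and 69.9 and 61.5 in DENR KO cells, a difference of −0.74 (adjusted p = 0.041, limma), to 59.1% of control. Both DENR KO samples lay below both control samples for each of the 3. The call of Trim12a was lost without any 1 of the 4 samples, at adjusted p-values of 0.062 (without control sample 1), 0.18 (control sample 2), 0.12 (DENR KO sample 1) and 0.13 (DENR KO sample 2). Trim12c lost its call without control sample 1, where the difference was −0.29 and the adjusted p 0.28, and without DENR KO sample 1 (0.17). Trim34a lost its call without control sample 2 (0.39) and without DENR KO sample 2 (0.16). These 3 genes share sequence with neighbours, as given above.

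In the rest of the antiviral group the estimates also lay below 0. Trim30a had 471 and 558 normalized counts in control cells and 433 and 388 in DENR KO cells, a difference of −0.32 (adjusted p = 0.098, limma), which was called, at −0.44, without control sample 1 (adjusted p = 0.013) and was −0.20 without control sample 2 (adjusted p = 0.64). Trim5 had 92.2 and 84.6 in control cells and 61.0 and 64.5 in DENR KO cells, a difference of −0.49 whose 95% interval ran from −0.92 to −0.06 (adjusted p = 0.28). For Trim56, Trim26, Trim14, Trim30d and Trim6 the differences were −0.13, −0.11, −0.06, −0.21 and −0.42, with adjusted p-values from limma between 0.38 and 0.89. In 11 of the 12 antiviral members, all but Trim6, both DENR KO samples lay below both control samples, as they did in 5 of the 30 other members and in 20.8% of all genes. The opposite order was seen in 0 of the 12, in 9 of the 30 and in 21.1% of all genes. The median log2 difference was −0.37 over the 12 antiviral members and 0.02 over the 30 others, and −0.0004 over all genes tested.

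Outside the antiviral group, 0 of the 30 members were called with IFNγ, and edgeR and DESeq2 likewise called 0. At an unadjusted p under 0.05 limma gave 2 lower and 0 higher, beside 899 lower and 970 higher of all 13928 genes. Their log2 differences ran from −0.73 (Trim43c) to 0.49 (Trim36), and both of these are low genes. The 5 members with the highest levels per kb kept close to control: Trim28 had 6364 and 6849 normalized counts in control cells and 6467 and 6592 in DENR KO cells, with a 95% interval of the log2 difference from −0.13 to 0.10. For Trim47, Trim35, Trim8 and Trim59 the differences were −0.07, −0.03, 0.11 and 0.04.

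Untreated, DENR KO cells had 0 members lower and 0 higher, against 0.15% lower and 0.429% higher of all genes. At an unadjusted p under 0.05, limma gave 3 lower and 2 higher members, while edgeR and DESeq2 called 0 in either direction after adjustment. Of all 13998 genes, 524 were lower and 771 higher at that unadjusted p. Both DENR KO samples lay below both control samples in 3 of the 12 antiviral members and above them in 3, against 19.6% and 20.4% of all genes. Trim21 had 133 and 144 normalized counts in control cells and 147 and 126 in DENR KO cells, and its 95% interval ran from −0.37 to 0.32. Trim25 had 1946 and 1985 in control cells and 1908 and 1845 in DENR KO cells, with an interval from −0.20 to 0.07. For Trim12a and Trim12c the differences were 0.03 and −0.12, and for Trim34a −0.11, with an interval from −0.86 to 0.64. The widest estimates belonged to genes with few reads. Trim6 had 17.1 and 12.2 in control cells and 3.92 and 13.8 in DENR KO cells, and Trim5 had 21.1 and 20.4 against 7.85 and 17.7.

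**Figure D5:**
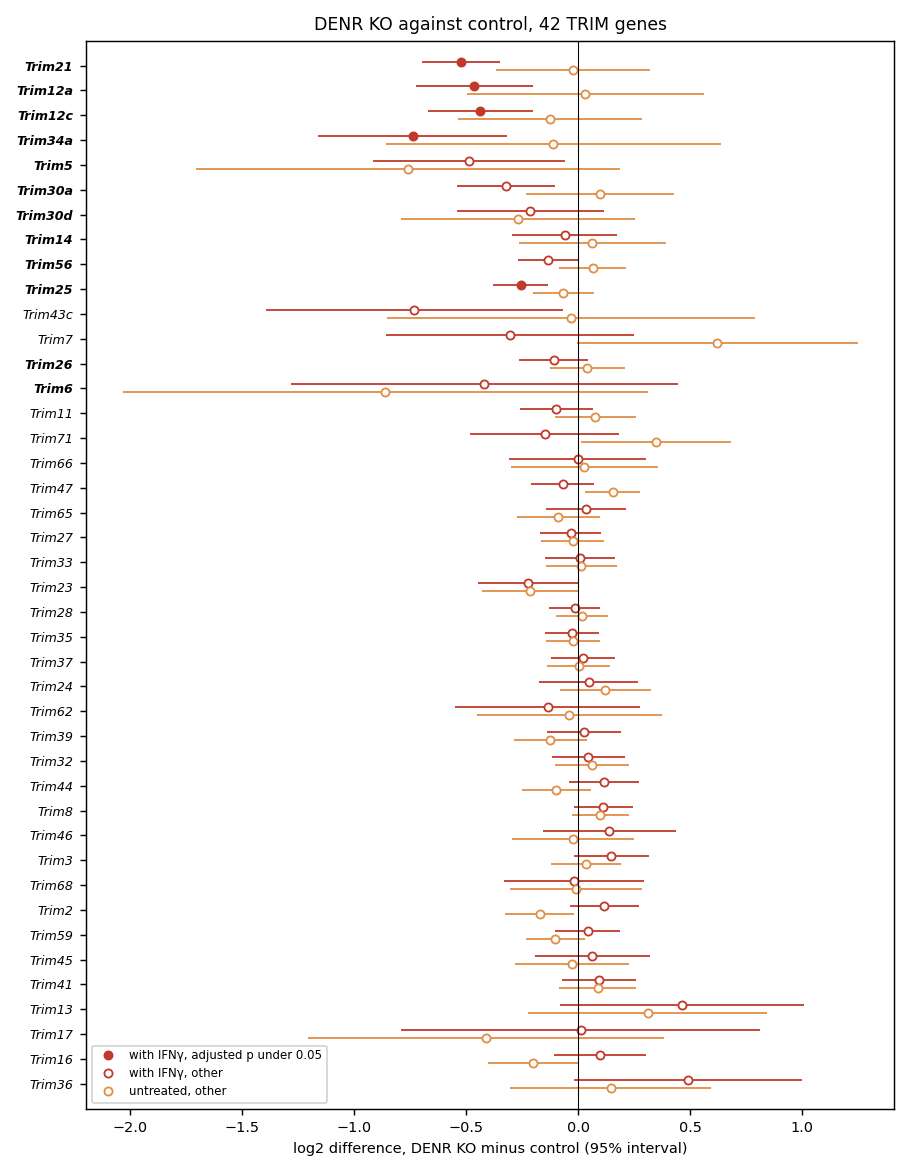
Log2 difference of DENR KO over control cells for the 42 TRIM genes, in the same order as the IFNγ response. Points are limma estimates with 95% intervals (red, with IFNγ; orange, untreated; filled, adjusted p under 0.05; bold names, antiviral group), with 2 samples in each group. The 5 filled points, Trim21, Trim12a, Trim12c, Trim34a and Trim25, are all from the treated samples and all below 0.

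An interaction term, fitted to the 8 samples together on 14268 genes, asked whether the DENR KO effect depended on treatment. It was called for 0 members in either direction, against 0.421% of all genes lower and 0.021% higher. At an unadjusted p under 0.05, limma gave 7 members lower and 3 higher, while edgeR and DESeq2 called 0 after adjustment. Of all 14268 genes, 460 were lower and 356 higher at that unadjusted p. Trim21 had the smallest adjusted p, at a difference of −0.50 with a 95% interval from −0.83 to −0.17 (adjusted p = 0.36, limma). For Trim25 the difference was −0.19 (interval −0.36 to −0.02) and for Trim30a −0.42 (interval −0.78 to −0.06), with adjusted p-values from limma of 0.78 and 0.70. Trim21 and Trim25 were called between genotypes with IFNγ and not untreated, but a difference between the treatments was not shown after adjustment. In the antiviral group 9 of 12 estimates were below 0, and the median was −0.19, beside 0.0003 over the 30 other members and 0.0007 over all genes.

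The partners of TRIM proteins were counted in the same fits. Of all genes, IFNγ raised 9.12% in control cells and 6.8% in DENR KO cells. With IFNγ 2.25% were lower in DENR KO cells, and the interaction was called lower for 0.421%. Of 9 genes of the IFNγ receptor pathway, which here include its target Irf1 and its inhibitor Socs1, IFNγ raised 8 in control cells, Irf1 at a log2 difference of 3.68 and Socs1 at 2.72 among them, and 6 in DENR KO cells. At an unadjusted p under 0.05, limma gave 8 of the 9 raised in control cells and 9 in DENR KO cells. Of all 14257 genes, 2006 and 1659 were raised at that unadjusted p. With IFNγ, DENR KO cells had 6 of the 9 lower and 0 higher, among them Irf1 by −0.52 and Socs1 by −0.75. The interaction was called lower for Irf1 (−0.58) and Socs1 (−0.75). Of the 5 genes of ISG15 conjugation, a ubiquitin-like tag that Trim25 can also attach, all were raised in either genotype, led in control cells by Herc6 (3.12), Isg15 (2.88) and Uba7 (2.60). In DENR KO cells with IFNγ 4 of the 5 were lower, Isg15 by −0.57, and the interaction was called for 0 of the 5.

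Of 14 genes of RIG-I and STING signaling, 8 were raised by IFNγ in control cells and 6 in DENR KO cells. At an unadjusted p under 0.05, limma gave 10 raised and 1 lowered in control cells, and 9 and 0 in DENR KO cells. Irf7 (2.68), Ddx58 (1.95), which encodes RIG-I, and Dhx58 (1.87) rose most in control cells. Between DENR KO and control cells with IFNγ, limma gave 7 of the 14 lower and 0 higher at an unadjusted p under 0.05. Of all 13928 genes, 899 were lower and 970 higher at that unadjusted p. The median log2 difference of the 14 was −0.17, beside −0.0004 over all genes. After adjustment, 1 of the 14 was lower in DENR KO cells with IFNγ. It was Tmem173, which encodes STING and is named after its value was seen, at −0.47 (adjusted p = 0.00018, limma), and it was also the 1 gene of the list with a called interaction (−0.59). For Ddx58, the substrate of Trim25, the DENR KO difference with IFNγ was −0.26 (adjusted p = 0.061, limma). Of 8 ubiquitin conjugating enzymes and enzyme variants that work with TRIM ligases, 3 were raised in control cells and 1 in DENR KO cells. At an unadjusted p under 0.05, limma gave 3 of the 8 raised in control cells and 5 in DENR KO cells. The largest rise in control cells was that of the variant Ube2v1, at 1.52. Between DENR KO and control cells 0 of the 8 were called in either treatment, and 0 in the interaction. Untreated, limma gave 1 of them higher at an unadjusted p under 0.05, beside 771 of all 13998 genes. Of 3 tested TRIM proteins with other symbols, Pml was raised by IFNγ in control cells (0.31) and was lower in DENR KO cells with IFNγ (−0.28, adjusted p = 0.010, limma), and Mid2 was lowered by IFNγ in control cells (−0.45). Untreated, 0 of the 39 tested genes of these 5 lists were called by limma between DENR KO and control cells. Of all genes only 0.15% were lower and 0.429% higher, so a count of 0 in 39 says little. At an unadjusted p under 0.05, limma gave 0 of the 39 lower and 1 higher, beside 524 and 771 of all 13998 genes. The interaction was called for 0 of the TRIM proteins with other symbols. These counts rest on the same samples as those of the TRIM genes.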

How the data were processed

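Poly-A RNA of 8 samples was sequenced by a company as paired ends. The authors deposited 1 table per treatment, each holding a normalized signal per gene and sample (reads divided by a size factor of 0.976 to 1.02) with group means, fold changes and p-values of their own comparison, which were not used. The submitters' processing notes name HISAT2 2.0.5, StringTie 1.3.3b, featureCounts 1.5.0-p3 and DESeq2 1.20.0. They name the build mm9, while the deposited coordinates are those of GRCm38, since 95.2% of 21739 genes had the same position in GENCODE M21. In all 8 columns, 100% of values were whole multiples of 1 step within 0.0001, and these reads were used for the common scale (median-of-ratios) and the count tests.

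The tests had been planned for this unit: limma 3.58.1 (R 4.3.3, trend and robust) on log2(value + 1), with Benjamini-Hochberg adjustment over all genes with a mean of at least 10 and a call at an adjusted p under 0.05. edgeR 4.0.16 and DESeq2 1.42.0 on the recovered reads were alternatives, beside pseudocounts of 0.5 and 5, a minimum mean of 50 or none, TMM scaling, a required log2 difference of 0.5, a replicate block, the spread of all 8 samples and each sample left out. The main limma fit and the edgeR and DESeq2 fits of each comparison were first run on simulated counts with the same spread setting for every gene. The other alternatives were not simulated. Members, lists and tests were chosen with earlier results of these data known. Genes were named if called between genotypes or in the interaction, if their IFNγ difference in control cells was beyond 1, if they belonged to the antiviral group or if they had 1 of the 5 highest levels per kb. Others are given by range or, where named for a lost or single call, after their values were seen. Counting error limits the genes with few reads. The values of 1 gene of the partner lists are not reported here.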

Additional observations from a re-analysis of the deposited data

How the results depend on the processing

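The 5 members lower in DENR KO cells with IFNγ stayed within 1.5 times that number under both other pseudocounts, both other filters, TMM scaling and edgeR. The number was 2 where a log2 difference beyond 0.5 was also required, 2 with DESeq2, 2 with the spread of all 8 samples, and 2 to 4 with 1 sample left out. Leaving out a sample leaves 1 arm with a lone sample, which is assumed to vary like the others. Trim21 alone kept its call under every alternative. Counts of 0 untreated and in the interaction stayed 0 under every alternative. In control cells the single member lowered by IFNγ became 0 with the required difference, 6 on the deposited scale of each table and 1 to 2 with 1 sample left out. In DENR KO cells the 0 lowered members became 2 on the deposited scale, which by its construction moves all genes down. Of all 14268 genes, that scale gave 1758 lowered in control cells and 956 in DENR KO cells.

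Replicate numbers are shared between groups, but deviations of same-numbered samples correlated at only −0.02 to 0.07, so the numbers were not taken as pairs. With a replicate block 7 members were lower in DENR KO cells with IFNγ. Of all 13928 genes, 729 were lower and 726 higher with the block, against 314 and 251 without it. The block added Trim30a (adjusted p = 0.019, limma) and Trim56 (0.026) to the lower members. In the IFNγ response of control cells 2 members were lowered and 13 raised, beside 1080 and 1496 of all 14257 genes. IFNγ raised 12 in DENR KO cells with the block, Trim65 being added (adjusted p = 0.0496, limma). Of all 14257 genes, 1117 were raised there with the block and 969 without it.

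Some estimates without a call changed sign with 1 sample left out. Untreated, the DENR KO difference ran from −0.12 to 0.19 for Trim12a, from −0.14 to 0.090 for Trim21 and from −0.45 to 0.23 for Trim34a. The interaction ran from −0.27 to 0.81 for Trim5, from −0.35 to 1.23 for Trim6 and from −0.046 to 0.16 for Trim30d, and the IFNγ response of Trim47 in DENR KO cells from −0.10 to 0.081. Each group has 2 samples, which limits the precision of every value, and genes with few reads, such as Trim5, Trim6 and Trim34a, are limited by counting error as well.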
